A study of Mus musculus with 9 samples.

Results

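The genes described here encode actins, testis actin-like proteins and subunits of the actin capping protein. They were chosen by name, and all 10 were found among the 39336 features of the deposited mRNA table: the cytoplasmic actins Actb and Actg1, the smooth muscle actins Acta2 and Actg2, the testis actin-like genes Actl7a, Actl7b, Actl9 and Actrt2, and the capping protein genes Capza3 and Capzb. RNA sequencing of germ cells isolated from adult mouse testis gave 3 libraries of spermatogonia (types A and B), 3 of pachytene spermatocytes and 3 of round spermatids. The labels name no strain, genotype or treatment, and the mice of every group were on a normal diet. The libraries of a stage are described as biological replicates, but neither the animals behind them nor the method of cell separation is given. The p-values therefore measure the spread between these libraries only.

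Actin is a globular protein that polymerises into filaments, which give cells their shape and carry transport. The cytoplasmic forms, beta-actin and gamma-actin, are found in nearly all cells, and the smooth muscle forms are best known from contractile cells such as the peritubular myoid cells that surround the seminiferous tubules. Actin-like proteins share the actin fold but differ in sequence. Several are made mainly in male germ cells. Actl7a and Actl9 have been placed in the acrosome region of sperm, and Actrt2, in bovine sperm, in the perinuclear theca, the protein layer around the nucleus. Capping protein is a dimer of an alpha and a beta subunit that closes the barbed end of a filament. Capza3 encodes the alpha subunit of male germ cells, and Capzb the beta subunit.

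Values are FPKM, fragments per kilobase of transcript and per M mapped fragments (M, mega), so that levels of different genes can be set side by side per length. The depth is not stated. The steps between low values imply 24.98 to 50.6 M fragments in the spermatogonia libraries, 20.2 to 24.95 M in the pachytene libraries and 17.1 to 24.9 M in the round spermatid libraries. The summed FPKM of 10 spermatogonial markers was 310 to 396 in spermatogonia, 40.3 to 44.2 in pachytene and 79.7 to 83.6 in round spermatid libraries. That of 8 pachytene markers was 138 to 172, 3858 to 4047 and 1046 to 1125, and that of 13 round spermatid markers such as Prm1 and Tnp1 was 1.05 to 1.31, 1702 to 1908 and 18579.8 to 18974.8, in the same order of stages. Markers of somatic cells were also present. Summed levels of 10 Sertoli cell markers were 671 to 842 in spermatogonia, 97.3 to 102 in pachytene and 33.5 to 36.3 in round spermatid libraries. For 9 markers of peritubular myoid cells the sums were 125 to 195, 24.9 to 28.0 and 26.1 to 26.9, and none of the 9 was at 0 in any library. Sums over 6 fibroblast markers were 164 to 356, 8.40 to 9.66 and 28.1 to 29.0, over 4 endothelial markers 28.5 to 64.2, 3.48 to 4.81 and 7.53 to 9.97, and over 7 macrophage markers 5.46 to 35.2, 1.39 to 2.55 and 19.4 to 23.1. Those of 6 Leydig cell markers were highest in pachytene, at 10.3 to 11.04, 84.0 to 92.5 and 17.8 to 26.8. Spermatogonia replicate 3 had the highest sums of the fibroblast (356, against 202 and 164 FPKM in replicates 1 and 2), endothelial (64.2, against 33.4 and 28.5 FPKM) and macrophage markers (35.2, against 6.78 and 5.46 FPKM). It also stood apart in genes of striated muscle: the cardiac actin Actc1 was at 576 FPKM there, against 1.45 and 0.967 FPKM in replicates 1 and 2, and desmin (Des) at 65.8 against 1.76 and 1.33 FPKM. The sarcomeric actin genes Actc1 and Acta1 are not among the 10 genes followed here.

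Changes were tested with limma on log2(FPKM + 0.1) in a single model of the 9 libraries, over the 17987 features that reached 0.5 FPKM in 3 or more libraries. A gene counts as changed at a Benjamini-Hochberg adjusted p under 0.05 and a log2 fold change of at least 1 in size, which is a 2-fold change. All 10 genes passed the filter on low values, although Actl7a, Actl7b, Actl9, Actrt2 and Capza3 did so only through the later stages. In pachytene against spermatogonia, 8 of the 10 were higher and 2 lower. Round spermatid transcripts in the pachytene libraries were also subtracted at the median level of their markers, as described below. Of the 8, Actg1, Actl7b and Actl9 then still passed upwards, and Capzb stayed higher but under the 2-fold limit (log2 fold change 0.89). The other 4 lie near or under that median and are left at or near 0 by construction, which is no test of their pachytene level. Over all features tested, 67.6% changed, 36.6% upwards and 31% downwards, so a change at this step is common. The median log2 fold change was 4.27 for the 10 genes and 0.26 for all features. Actl7a, Actl7b, Actl9, Actrt2 and Capza3 entered only through high later stages, so a rise over spermatogonia was largely built in for them. The counts of rises against spermatogonia and this median of the 10 genes are thus no test of an excess over all features. In round spermatids against pachytene, 6 of the 10 were higher and none was lower, against 40.8% of all features changed either way and 27.3% higher. Medians were 1.92 for the 10 genes and 0.13 for all features. In round spermatids against spermatogonia, 7 were higher and 1 lower, against 68.6% of all features changed, 38.5% upwards and 30.1% downwards. Libraries of the stages compared did not overlap for 88.4% of all features in pachytene against spermatogonia, 80.1% in round spermatids against pachytene and 89% in round spermatids against spermatogonia, so a lack of overlap is also common. The 3 comparisons share libraries and are not independent of each other.

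Making the library medians equal moved the median log2 fold change of all features by 0.11 in pachytene against spermatogonia, -0.36 in round spermatids against pachytene and -0.25 in round spermatids against spermatogonia. Of the features changed in round spermatids against pachytene, 67.0% were higher, and with equal medians 49.2%. The 10 genes kept their directions in all 3 comparisons under that scaling. Leaving out spermatogonia replicate 3 changed none of their calls.

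**Figure D1:**
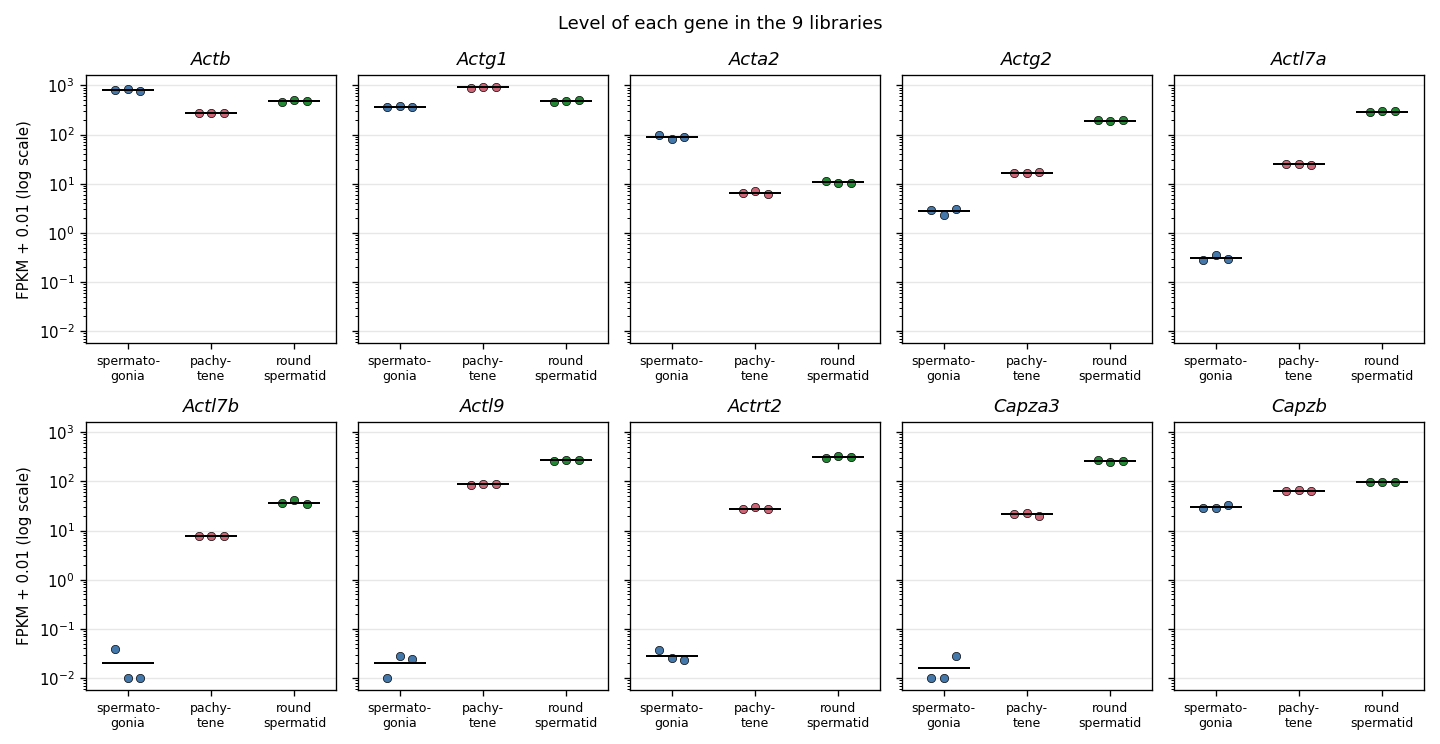
Level of each of the 10 genes in FPKM + 0.01 on a log axis, in 3 libraries each of spermatogonia, pachytene spermatocytes and round spermatids (points) with the stage mean (bar). Actl7b, Actl9, Actrt2 and Capza3 lie at or below 0.0297 FPKM in every spermatogonia library and at or above 34.1 FPKM in every round spermatid library, while Actb and Actg1 are at 272 FPKM or more throughout.

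The cytoplasmic actins changed in opposite directions when pachytene cells were compared with spermatogonia. Actb (chr5:142903115-142906754, minus strand, GRCm38) was at 802, 827 and 776 FPKM in the spermatogonia libraries, 272, 278 and 274 FPKM in the pachytene libraries and 453, 495 and 481 FPKM in the round spermatid libraries. Every spermatogonia library was above every round spermatid library, and these in turn were above every pachytene library. Actb fell in pachytene against spermatogonia, with 275 ± 3.16 against 801 ± 25.7 FPKM (SD, n = 3 each; log2 fold change -1.54, SE 0.0564, limma adjusted p = 5.34e-09). Round spermatids were at 476 ± 21.6 FPKM against 275 ± 3.16 FPKM in pachytene, a log2 fold change of 0.79 (SE 0.0564, limma adjusted p = 1.47e-06), which is under the 2-fold limit. Among the 17987 features, Actb ranked 55 in spermatogonia, 345 in pachytene and 207 in round spermatids. With equal medians its log2 fold change in round spermatids against spermatogonia was -1.004, just past the 2-fold limit, against -0.75 as deposited. The summed markers of spermatogonia, fibroblasts, endothelial cells and macrophages were likewise lowest in pachytene, and the part of these cells in the Actb result was not tested. Not every single marker took that course. Col3a1 was at 6.64 FPKM in pachytene and 4.99 FPKM in round spermatids, Pecam1 at 0.641 and 0.603, Cdh5 at 0.557 and 0.518, and Ccnd2 at 1.16 and 0.933 FPKM. The summed Sertoli markers were lowest in round spermatids, and the summed myoid markers overlapped between pachytene and round spermatids.

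Actg1 (chr11:120345690-120348542, minus strand) followed the reverse course. It was at 364, 390 and 356 FPKM in the spermatogonia libraries, 890, 926 and 927 FPKM in the pachytene libraries and 467, 493 and 517 FPKM in the round spermatid libraries. The pachytene libraries were the highest and the spermatogonia libraries the lowest, with no overlap between stages. Actg1 rose in pachytene, with 914 ± 21.2 against 370 ± 17.3 FPKM in spermatogonia (log2 fold change 1.31, SE 0.0630, limma adjusted p = 3.87e-08). Its log2 fold change in round spermatids against pachytene was -0.89 (SE 0.0630, limma adjusted p = 1.36e-06), under the 2-fold limit. With the medians of the libraries made equal, this value was -1.25 and passed the limit. The summed Leydig cell markers were also highest in pachytene, as were the summed pachytene markers. The part of Leydig cells in the Actg1 result was not tested. Of the distinct 100-base stretches of the longest Actg1 transcript, 51.0% also occur in other annotated genes, 6 processed pseudogenes of which Gm12715 alone shares 44.4%. How reads that match several places were counted is not given, so the level of Actg1 is less certain than that of Actb, which shares 1.10% of its stretches.

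The balance between the cytoplasmic actins was nearly the same in the libraries of a stage. The log2 ratio of Actb to Actg1 within a library was 1.14, 1.09 and 1.12 in spermatogonia, -1.71, -1.73 and -1.76 in pachytene and -0.05, 0.01 and -0.10 in round spermatids. Beta-actin transcripts were thus the more abundant in spermatogonia, gamma-actin transcripts in pachytene cells, and the levels were about equal in round spermatids. The difference of mean log2 ratios was -2.85 in pachytene minus spermatogonia and 1.69 in round spermatids minus pachytene. Each had an exact two-sided permutation p of 0.1, which is the smallest that 3 libraries against 3 allow. The stages did not overlap in either comparison.

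The smooth muscle actins also parted. Acta2 (chr19:34241090-34255590, minus strand) encodes alpha smooth muscle actin. It was at 99.7, 79.5 and 89.9 FPKM in the spermatogonia libraries, 6.41, 7.01 and 6.04 FPKM in the pachytene libraries and 11.2, 10.3 and 10.4 FPKM in the round spermatid libraries. The spermatogonia libraries were far above all others, and the round spermatid libraries were above every pachytene library. Acta2 fell in pachytene against spermatogonia (6.49 ± 0.487 against 89.7 ± 10.1 FPKM; log2 fold change -3.77, SE 0.0896, limma adjusted p = 2.84e-10) and in round spermatids against spermatogonia (log2 fold change -3.06, SE 0.0896, limma adjusted p = 1.01e-09). Between round spermatids and pachytene the log2 fold change was 0.70 (SE 0.0896, limma adjusted p = 7.88e-05), under the 2-fold limit.

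Markers of peritubular myoid cells, which contain Acta2 protein, moved with Acta2. In pachytene against spermatogonia all 9 fell, among them smooth muscle myosin Myh11 (1.23 ± 0.0559 against 12.9 ± 1.82 FPKM) and Myl9 (11.98 ± 1.46 against 76.5 ± 7.92 FPKM), and in round spermatids against spermatogonia 8 of 9 were lower. Of all features, 31% and 30.1% were lower in these comparisons. None of the 9 changed between round spermatids and pachytene, against 40.8% of all features. The fall in pachytene was not particular to myoid markers. All 10 spermatogonial, 6 fibroblast and 4 endothelial markers also fell there, as did 9 of 10 Sertoli and 6 of 7 macrophage markers. Of 5 Leydig markers tested, 4 rose. Among the spermatogonia libraries the sum of all 9 was highest in replicate 3, at 195 FPKM, through Des alone. Without Des the sum was 142, 124 and 129 FPKM in replicates 1 to 3, the same order as Acta2 at 99.7, 79.5 and 89.9 FPKM. Without that library the log2 fold change of Acta2 in pachytene against spermatogonia was -3.76, and 8 of the 9 markers were tested, of which 7 fell. In a bulk sample, fewer cells of a type and less RNA per cell cannot be told apart, and the part of myoid cells in the Acta2 result was not tested.

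Actg2 (chr6:83512905-83536265, minus strand) encodes gamma smooth muscle actin, the form of visceral muscle. Against spermatogonia it moved in the opposite direction to Acta2, while both were higher in round spermatids than in pachytene. It was at 2.92, 2.31 and 3.06 FPKM in the spermatogonia libraries, 16.5, 16.9 and 17.1 FPKM in the pachytene libraries and 196, 189 and 195 FPKM in the round spermatid libraries. The stages did not overlap, and the round spermatid libraries were the highest by far. Actg2 rose in round spermatids against pachytene, with 193 ± 3.53 against 16.8 ± 0.300 FPKM (log2 fold change 3.51, SE 0.0915, limma adjusted p = 3.76e-09). In pachytene against spermatogonia the log2 fold change was 2.57 (SE 0.0915, limma adjusted p = 4.40e-09). The pachytene rise ended when a share of the round spermatid level was subtracted from the pachytene libraries, as described below. As a percentage of the round spermatid level, pachytene Actg2 lies within the range of the round spermatid markers. The subtraction therefore leaves little of it by construction and is no test of the rise.

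The log2 ratio of Acta2 to Actg2 was 5.05, 5.04 and 4.83 in spermatogonia, -1.35, -1.25 and -1.49 in pachytene and -4.12, -4.19 and -4.22 in round spermatids. The difference was -6.34 in pachytene minus spermatogonia and -2.81 in round spermatids minus pachytene. The exact two-sided permutation p was 0.1 for each, the smallest possible. Both depend on the pachytene level of Actg2. With the lowest marker percentage subtracted, as described below, the differences were -3.97 and -5.18, and Acta2 (5.72 FPKM) was then above Actg2 (2.82 FPKM) in pachytene. With the median marker percentage subtracted, Actg2 was left with 0 in pachytene and the first difference turned to 0.83. Either subtraction leaves little or no pachytene Actg2 by construction, so these values are no test of the ratio. No 100-base stretch of the longest Acta2 or Actg2 transcript occurs in another annotated gene.

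The summed level of Actb, Actg1, Acta2 and Actg2 lay between 1127 and 1298 FPKM in all 9 libraries, while its make-up differed widely between stages. Left out are the sarcomeric actins Actc1 and Acta1. In spermatogonia replicate 3 these were at 576 and 73.1 FPKM, against at most 1.45 and 0.339 FPKM in any other library. Actc1 was there above Actg1 (356 FPKM). The sum and the percentages therefore hold for the summed genes only and are no total of all actins. The sum was 1264 ± 36.9 FPKM in spermatogonia, 1213 ± 23.7 FPKM in pachytene and 1172 ± 39.8 FPKM in round spermatids. Actb made up 63.4 ± 0.261% of it in spermatogonia, 22.7 ± 0.309% in pachytene and 40.6 ± 0.949% in round spermatids. Actg1 made up 29.3 ± 0.658%, 75.4 ± 0.331% and 42.0 ± 0.858% in the same order. The smooth muscle forms changed places as the minor component: Acta2 was 7.11 ± 0.888% in spermatogonia, 0.535 ± 0.0389% in pachytene and 0.906 ± 0.0724% in round spermatids, and Actg2 was 0.219 ± 0.0369% in spermatogonia, 1.39 ± 0.0136% in pachytene and 16.5 ± 0.764% in round spermatids.

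**Figure D2:**
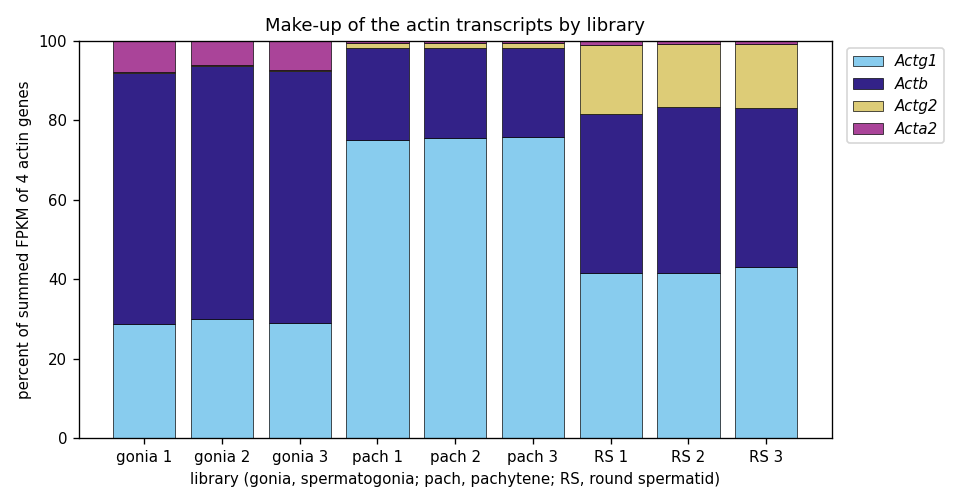
Share of Actg1, Actb, Actg2 and Acta2 in their summed FPKM, in percent, with a stacked bar for each of the 9 libraries. Actc1 and Acta1 are not part of the sum. Actb holds the largest share in spermatogonia (63.2 to 63.7%), Actg1 in pachytene (75.1 to 75.7%), and Actg2 reaches 15.9 to 17.4% in round spermatids.

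The testis actin-like genes were all near 0 in spermatogonia and highest in round spermatids. All 4 rose in pachytene against spermatogonia and again in round spermatids against pachytene. The pachytene rise of Actl7a and Actrt2 ended when the median marker percentage was subtracted, which leaves genes near or under that percentage at or near 0 by construction. Actl7a and Actl7b are neighbouring genes without introns on chromosome 4, transcribed away from each other with 1969 bases between them (Actl7a at chr4:56743413-56744925, plus strand; Actl7b at chr4:56740005-56741443, minus strand). Actl7a was at 0.270, 0.347 and 0.278 FPKM in the spermatogonia libraries, 24.6, 25.7 and 24.0 FPKM in the pachytene libraries and 283, 299 and 299 FPKM in the round spermatid libraries. Each stage stood clear of the next, and the replicates of a stage lay close together. The log2 fold change of Actl7a was 5.97 in pachytene against spermatogonia (SE 0.0769, limma adjusted p = 5.45e-12) and 3.56 in round spermatids against pachytene (SE 0.0769, limma adjusted p = 1.73e-09).

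Actl7b was at 0.0297, 0 and 0 FPKM in the spermatogonia libraries, 7.65, 7.85 and 7.79 FPKM in the pachytene libraries and 36.4, 40.9 and 34.1 FPKM in the round spermatid libraries. As deposited, it was the lowest of the 4 actin-like genes in every pachytene and round spermatid library. With its antisense gene included, as described next, it would be the highest in each. At the estimated depths its spermatogonia value stands for 1 fragment in the 3 libraries together, and the depth-adjusted ratio of pachytene to spermatogonia is 1347 with a 95% counting interval from 242 to 53186. The fitted log2 fold change of 6.17 in pachytene against spermatogonia (SE 0.124, limma adjusted p = 9.02e-11) depends on the added 0.1 FPKM and is no measure of that ratio. Between round spermatids and pachytene the log2 fold change was 2.24 (SE 0.124, limma adjusted p = 2.83e-07).

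Another gene, Gm26657 (chr4:56740070-56741377, plus strand), lies within Actl7b on the opposite strand and covers 90.9% of its exon. Gm26657 was at 0.506, 0.454 and 0.398 FPKM in the spermatogonia libraries, 175, 191 and 179 FPKM in the pachytene libraries and 976, 1026 and 964 FPKM in the round spermatid libraries. Its level was 22.9 to 28.3 times that of Actl7b in the pachytene and round spermatid libraries. The library kit marks the strand, but whether counting used it is not given, so reads of Actl7b and of Gm26657 cannot be told apart here. Combining the pair, length for length, gives 0.421 ± 0.0643 FPKM in spermatogonia, 173 ± 7.498 FPKM in pachytene and 936 ± 33.2 FPKM in round spermatids, above Actl7a in each stage. The log2 fold changes of the combined value were 8.38 in pachytene against spermatogonia and 2.44 in round spermatids against pachytene. The log2 ratio of Actl7a to Actl7b was 1.66 ± 0.0427 in pachytene and 1.86 ± 0.328 in spermatogonia (exact two-sided permutation p = 0.4), and 2.98 ± 0.132 in round spermatids against 1.66 ± 0.0427 in pachytene (p = 0.1, the smallest possible by the exact test). It rests on the Actl7b value alone and not on the combined one, and on the pachytene level of Actl7a, which the subtraction described below lowers.

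**Figure D3:**
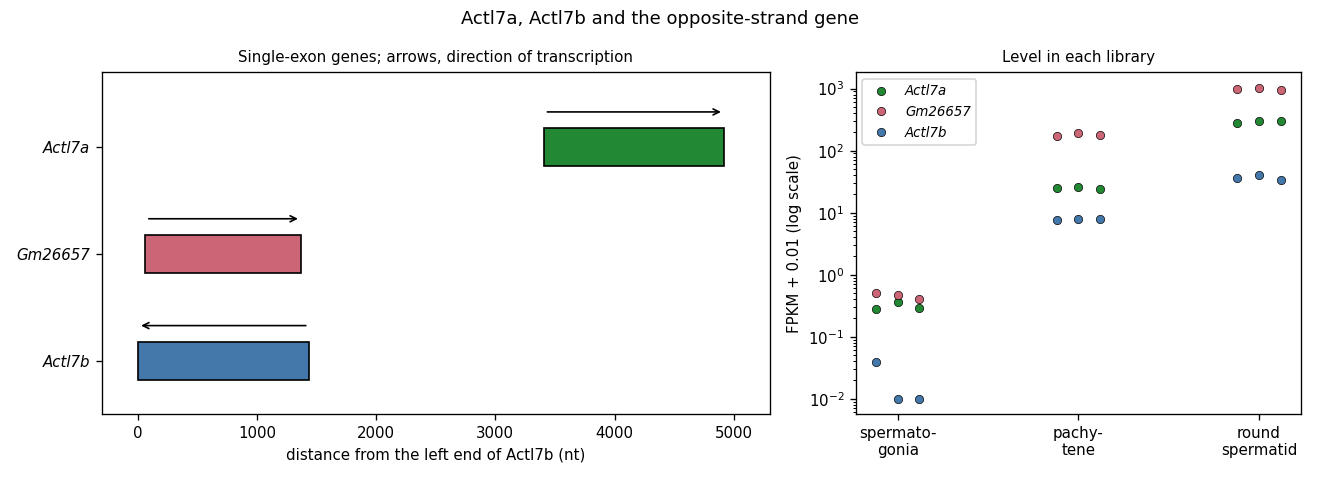
Left, the positions of Actl7a, Gm26657 and Actl7b as distance in nt from the left end of Actl7b, with arrows for the direction of transcription. Right, their levels in each library in FPKM + 0.01 on a log axis, where Gm26657 lies 22.9 to 28.3 times above Actl7b in every pachytene and round spermatid library.

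Actl9 (chr17:33432896-33434268, plus strand) was at 0, 0.0175 and 0.0141 FPKM in the spermatogonia libraries, 85.7, 90.4 and 86.9 FPKM in the pachytene libraries and 260, 272 and 268 FPKM in the round spermatid libraries. When Actl7b is taken alone, Actl9 had the highest level of the 4 actin-like genes in all 3 pachytene libraries, but the combined value of Actl7b and Gm26657 (167, 181 and 170 FPKM) was above it. Its spermatogonia values stand for 2 estimated fragments, and the depth-adjusted ratio of pachytene to spermatogonia is 7256 (95% counting interval from 2009 to 59912). In round spermatids against pachytene it rose to 266 ± 6.01 FPKM, against 87.7 ± 2.43 FPKM (log2 fold change 1.60, SE 0.0681, limma adjusted p = 5.31e-08). That is the smallest change of the 4 at this step.

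Actrt2 (chr4:154666433-154667867, minus strand) was at 0.0270, 0.0150 and 0.0127 FPKM in the spermatogonia libraries, 27.0, 30.3 and 26.8 FPKM in the pachytene libraries and 302, 325 and 307 FPKM in the round spermatid libraries. It was the highest of the 4 in every round spermatid library when Actl7b is taken alone. Its spermatogonia values stand for 3 estimated fragments, 1 in each library, and the ratio of pachytene to spermatogonia is 1615 (95% counting interval from 553 to 7830). The fitted log2 fold change was 7.89 in pachytene against spermatogonia (SE 0.0743, limma adjusted p = 9.17e-13). It depends on the added 0.1 FPKM, was 4.83 with 1 FPKM added, and is no measure of that ratio. In round spermatids against pachytene the log2 fold change was 3.47 (SE 0.0743, limma adjusted p = 1.66e-09).

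Upstream sequences of the genes were read from the RefSeq promoter table for GRCm38.p6, which holds 7 of the 10. They are shown for the testis actin-like genes, whose levels went together from near 0, with Actg1 for comparison. Each line gives the 120 bases before the annotated gene in the direction of transcription, and capitals mark TGATGTCA (or TGACATCA, which is the same motif on the other strand) or, in Actg1, the CArG box, the binding motif of serum response factor.
Actl7a (chr4:56743293-56743412, plus strand): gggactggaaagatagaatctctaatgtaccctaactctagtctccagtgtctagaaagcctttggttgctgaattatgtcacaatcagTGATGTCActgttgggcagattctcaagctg
Actl7b (chr4:56741444-56741563, minus strand): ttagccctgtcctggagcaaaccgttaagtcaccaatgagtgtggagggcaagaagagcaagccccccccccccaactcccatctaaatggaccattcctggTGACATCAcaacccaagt
Actl9 (chr17:33432776-33432895, plus strand): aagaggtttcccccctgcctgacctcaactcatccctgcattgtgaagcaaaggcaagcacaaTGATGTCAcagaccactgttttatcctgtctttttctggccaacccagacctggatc
Actrt2 (chr4:154667868-154667987, minus strand): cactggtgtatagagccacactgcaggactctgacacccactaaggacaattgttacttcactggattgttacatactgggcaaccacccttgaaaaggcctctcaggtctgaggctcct
Actg1 (chr11:120348543-120348662, minus strand): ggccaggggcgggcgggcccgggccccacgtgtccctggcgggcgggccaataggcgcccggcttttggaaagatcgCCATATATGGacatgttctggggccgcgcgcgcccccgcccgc

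In windows of 250 bases upstream of the RefSeq start, searched on both strands, TGATGTCA was found in Actl7a (40 to 33 bases before the start), Actl7b (36 to 29 bases) and Actl9 (60 to 53 bases), which is 3 of the 7 windows. It occurs in 2.93% of all 32851 promoter windows of that length. TGACGTCA, the palindromic cAMP response element, was in none of the 7, against 1.55% of all windows. The CArG box was searched only in its strict form, CCWWWWWWGG with W for A or T. That form was in Actg1 alone (90 to 81 bases before the start), against 1.47%. Near matches, such as ccctatatgg in the Acta2 window, were not counted, and Actb, Actg2 and Capza3 had no window. TATAAA was in Actl9 alone, against 12.4%. These motifs were picked after the sequences were seen, so the counts are a description, and a match does not show that a factor binds there.

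The capping protein genes also rose, and the make-up of the alpha subunit changed. Capza3 (chr6:140041252-140042778, plus strand), an intronless gene, was at 0, 0 and 0.0175 FPKM in the spermatogonia libraries, 22.0, 23.0 and 19.9 FPKM in the pachytene libraries and 266, 248 and 258 FPKM in the round spermatid libraries. Its spermatogonia value stands for 1 estimated fragment, and the ratio of pachytene to spermatogonia is 3183 with a 95% counting interval from 571 to 125739. In round spermatids against pachytene the log2 fold change was 3.57 (257 ± 8.86 against 21.6 ± 1.60 FPKM; SE 0.0865, limma adjusted p = 2.69e-09). Capzb (chr4:139192899-139291818, plus strand) encodes the beta subunit for every alpha subunit. It was at 28.3, 28.9 and 32.5 FPKM in the spermatogonia libraries, 64.6, 65.2 and 63.0 FPKM in the pachytene libraries and 95.6, 95.7 and 96.8 FPKM in the round spermatid libraries. The stages did not overlap. Capzb rose by a log2 fold change of 1.10 in pachytene against spermatogonia (SE 0.0566, limma adjusted p = 5.99e-08). With the round spermatid share subtracted this was 0.94, under the 2-fold limit. Its value of 0.58 in round spermatids against pachytene (SE 0.0566, limma adjusted p = 1.24e-05) is under the 2-fold limit.

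Capza1 and Capza2, the alpha subunit genes of other tissues, were compared with Capza3 within each library. Capza1 was at 17.4 ± 0.675 FPKM in spermatogonia, 149 ± 1.61 FPKM in pachytene and 79.0 ± 5.60 FPKM in round spermatids, and Capza2 at 49.3 ± 4.95, 24.0 ± 1.94 and 18.2 ± 1.71 FPKM. Capza2 was therefore the main alpha subunit transcript in spermatogonia, Capza1 in pachytene cells and Capza3 in round spermatids. Capza3 made up 0, 0 and 0.0247% of the 3 alpha subunit transcripts in the spermatogonia libraries, 11.3, 11.7 and 10.4% in the pachytene libraries and 73.3, 73.3 and 71.1% in the round spermatid libraries. The difference was 11.1 percentage points in pachytene minus spermatogonia and 61.5 percentage points in round spermatids minus pachytene, each with an exact two-sided permutation p of 0.1, the smallest possible. With the lowest marker percentage subtracted the first difference was 1.72 percentage points, and with the median subtracted no Capza3 was left in pachytene. Both follow largely by construction, since pachytene Capza3 lies within the range of the marker percentages. In pachytene against spermatogonia Capza1 rose (log2 fold change 3.09, limma adjusted p = 5.67e-11) and Capza2 fell (-1.03, limma adjusted p = 5.88e-06). Neither passed the 2-fold limit in round spermatids against pachytene.

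**Figure D4:**
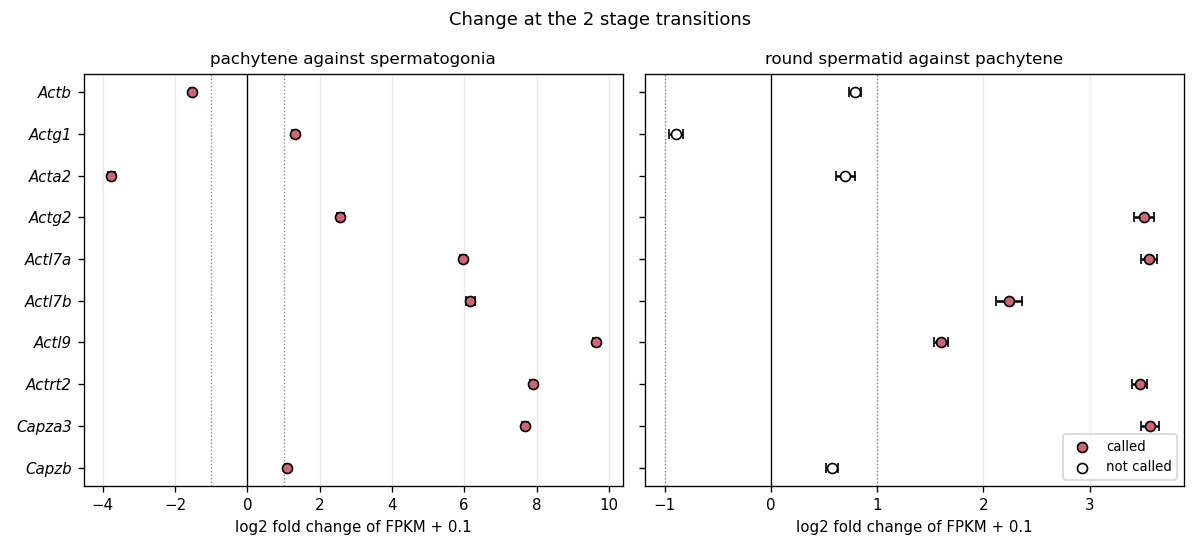
Log2 fold change of FPKM + 0.1 with its SE (bars) for the 10 genes, in pachytene against spermatogonia (left) and in round spermatids against pachytene (right); filled points passed the test and dotted lines mark a 2-fold change. All 10 passed on the left, 2 of them downwards, and Actg2, Actl7a, Actl7b, Actl9, Actrt2 and Capza3 passed on the right.

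The pachytene level of several of these genes stood at nearly the same percentage of their round spermatid level as did markers of round spermatids. Over the 13 markers, which include the protamines and transition proteins of the condensing nucleus, the pachytene mean was 7.44 to 10.8% of the round spermatid mean (median 8.92%). Capza3 was at 8.39 ± 0.623%, Actl7a at 8.44 ± 0.283%, Actg2 at 8.71 ± 0.155% and Actrt2 at 8.996 ± 0.628% (SD over 3 pachytene libraries), all within the range of the markers. Actl7b, at 20.9 ± 0.285%, and Actl9, at 32.9 ± 0.912%, were above it in every pachytene library, as was Gm26657 at 18.4 ± 0.824%. Actb (57.7%), Acta2 (61.2%), Capzb (66.9%) and Actg1 (186%) were further above. The markers show round spermatid transcripts in the pachytene libraries, and whether these came from round spermatids in the sample or from pachytene cells cannot be told apart.

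**Figure D5:**
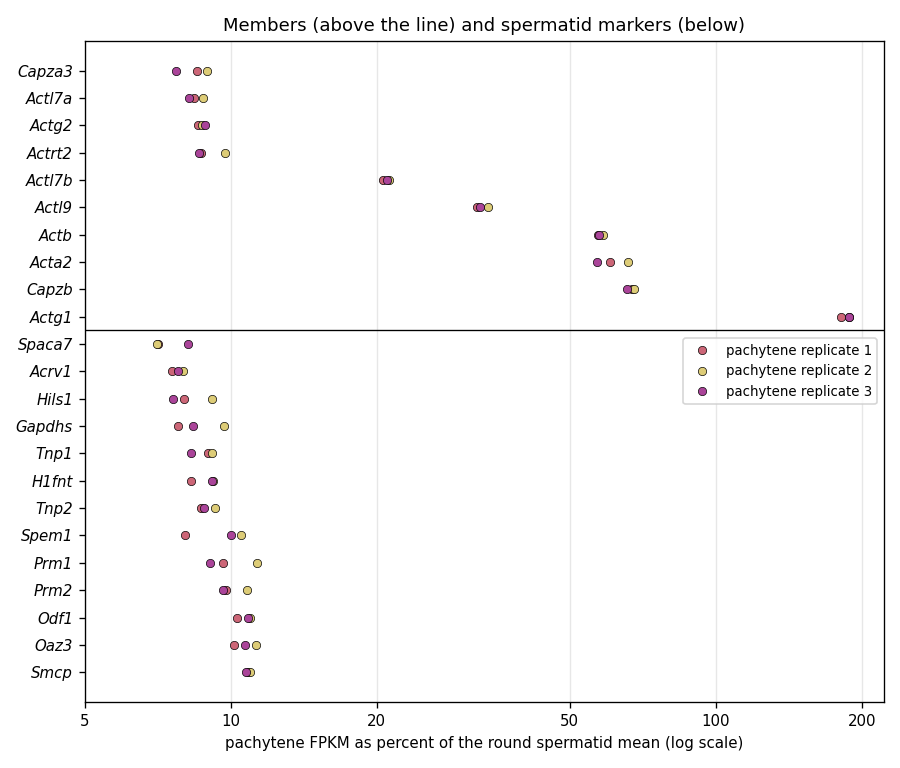
Level in each pachytene library as a percentage of the round spermatid mean, on a log axis, for the 10 genes (above the line) and for 13 round spermatid markers (below). Capza3, Actl7a, Actg2 and Actrt2 fall within the range of the marker means of 7.44 to 10.8%, and the other 6 genes lie above it.

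When the lowest percentage among the 13 markers in a library (7.10, 7.04 and 7.62% in pachytene replicates 1 to 3) of the round spermatid mean was subtracted, the calls of 2 genes in pachytene against spermatogonia ended. Actg2 was left with 2.80, 3.25 and 2.39 FPKM in the pachytene libraries, against 2.92, 2.31 and 3.06 FPKM in the spermatogonia libraries (log2 fold change 0.03, limma adjusted p = 0.863). Capzb was left with a log2 fold change of 0.94, under the 2-fold limit. Actl9 kept most of its level, with 66.8, 71.6 and 66.6 FPKM, and Actl7b kept 5.01, 5.24 and 4.96 FPKM. Actl7a kept 3.78, 5.02 and 1.67 FPKM, Actrt2 4.89, 8.35 and 3.06 FPKM, and Capza3 3.70, 4.89 and 0.246 FPKM. For these 3 and for Actg2, whose percentages lie within the range of the markers, taking off the lowest marker percentage leaves a small remainder by construction. It therefore gives no test of their pachytene level.

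With the median percentage of the markers in each library (8.69, 9.68 and 9.05%) subtracted in its place, a setting chosen after the data were seen, Actg2, Actl7a and Capza3 were left with 0 in all 3 pachytene libraries and Actrt2 with 0, 0.123 and 0 FPKM. The pachytene rise of all 4 then ended. These 4 lie near or under the marker median, so they are left at or near 0 by construction, and this gives no test of their pachytene level. Actl9 kept 62.6, 64.6 and 62.8 FPKM and Actl7b 4.42, 4.26 and 4.43 FPKM, and both still passed in pachytene against spermatogonia (log2 fold changes of 9.17 and 5.36, limma adjusted p = 1.27e-12 and 1.05e-09). The rise of Actg1 also remained, at 1.23 (limma adjusted p = 1.06e-07).

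Other genes of the perinuclear theca and of acrosome attachment fell into the same kinds. Of 11 measured, all 11 rose in pachytene against spermatogonia, and 5 rose and 1 fell in round spermatids against pachytene. Changed were thus 100% at the first step and 54.5% at the second, against 67.6% and 40.8% of all features. Ccin (8.997%), Cylc1 (7.80%), Cylc2 (7.77%), Spaca1 (8.11%) and Plcz1 (8.64%) had pachytene levels near those percentages of the markers. Such a percentage entails a rise in round spermatids, so these are also the 5 that rose. Dpy19l2 (97.5%) and Spata16 (102%), both linked to acrosome attachment or formation, and Zpbp (72.6%) and Zpbp2 (75.3%) were already near their round spermatid level in pachytene. Gopc, a Golgi protein of acrosome formation, was the gene that fell, with 5.79 FPKM in round spermatids against 27.7 FPKM in pachytene.

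Neighbouring features were searched within 10000 bases of each gene, and 15 distinct features of the mRNA table were found, with none in the lncRNA table. Plcz1 encodes the sperm phospholipase that activates the egg and lies head to head with Capza3 on the opposite strand, 98 bases apart in the deposited positions. In GENCODE M21, whose coordinates are printed here for Capza3, the genes overlap by 206 bases. Reads from there cannot be assigned to either gene without the strand, and whether counting used it is not given. Plcz1 was listed at 0 in all 3 spermatogonia libraries. Its pachytene libraries held 17.1, 16.7 and 15.1 FPKM and its round spermatid libraries 197, 175 and 195 FPKM. The log2 fold change in round spermatids against pachytene was 3.53 for Plcz1 and 3.57 for Capza3. Stambpl1, a deubiquitinase gene, ends 755 bases from the end of Acta2 on the opposite strand and was at 2.40 ± 0.494 FPKM in spermatogonia, 6.44 ± 0.236 FPKM in pachytene and 80.2 ± 3.98 FPKM in round spermatids, a course unlike that of Acta2.

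The features closest in course to each gene were found from the root mean square difference between centred log2 profiles over the 9 libraries, among 14708 features with a mean of at least 1 FPKM. The closest was Pgrmc1 for Actb (difference 0.0548), Abtb1 for Actg1 (0.0410), Tspan9 for Acta2 (0.117), Mroh5 for Actg2 (0.0889) and Zfp474 for Actl7a (0.0737). It was Gm21103 for Actl7b (0.223), Gm5142 for Actl9 (0.0887), Tmem247 for Actrt2 (0.106), Akap3 for Capza3 (0.0803) and Rnf141 for Capzb (0.0785). Among the 10 genes themselves, Actrt2 and Capza3 were the closest pair (0.143), and Tmem190 was among the 3 closest features of both. Actl7a and Actl7b followed at 0.605. The values of genes near 0 in spermatogonia rest on few fragments there, which also enters these differences.

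The wider actin machinery gave a mixed picture. Of 18 other actins and actin-related proteins, 15 were tested, and 10 rose and 4 fell in pachytene against spermatogonia, while 4 rose and 2 fell in round spermatids against pachytene. The shares changed were 93.3% and 40.0%, against 67.6% and 40.8% of all features. The 4 that rose in round spermatids were Actl10 (56.3 ± 3.18 against 4.07 ± 0.492 FPKM; log2 fold change 3.76), Actrt1 (20.9 ± 0.844 against 1.60 ± 0.0711 FPKM; 3.63), Actl11 (58.8 ± 2.54 against 4.77 ± 0.197 FPKM; 3.60) and Actrt3 (24.5 ± 0.749 against 2.08 ± 0.0916 FPKM; 3.50). Each of these was lower in round spermatids than Actl7a, Actl9 and Actrt2. At this step the 13 round spermatid markers had a median log2 fold change of 3.49. How far round spermatid transcripts enter the pachytene levels of these 4 genes, and so the counts at the first step, was not tested. Actr2 and Actr3, the actin-related subunits of the Arp2/3 complex that starts branched filaments, fell in pachytene, to 6.27 ± 0.305 FPKM against 20.2 ± 1.57 FPKM in spermatogonia for Actr2 and to 17.7 ± 0.321 FPKM against 68.2 ± 3.36 FPKM for Actr3. Actr1a, the dynactin filament subunit, rose to 225 ± 9.97 FPKM in pachytene, against 21.2 ± 1.58 FPKM in spermatogonia. Actc1 was also called lower (limma adjusted p = 0.0287), but without spermatogonia replicate 3, where it was at 576 FPKM, it did not pass the filter on low values. The counts of the list in pachytene were then 10 higher and 3 lower of 14 tested.

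Of 25 other genes of filament capping and severing, 20 were tested, and 2 rose and 10 fell in pachytene against spermatogonia, with a median log2 fold change of -1.01 against 0.26 over all features. Without spermatogonia replicate 3 they were 3 and 8 of 19. In round spermatids against pachytene 6 rose and 3 fell. The shares changed were 60.0% and 45.0%, against 67.6% and 40.8% of all features. Tmod2, a tropomodulin that caps the pointed end, rose to 45.0 ± 1.87 FPKM in round spermatids, against 3.47 ± 0.219 FPKM in pachytene, and Lrrc16a, an inhibitor of capping protein, rose to 57.9 ± 2.27 FPKM, against 8.46 ± 0.619 FPKM. The log2 fold change of Tmod2 was 3.66, near the median of 3.49 of the round spermatid markers, and the part of round spermatid transcripts in its pachytene level was not tested. Of 26 genes of monomer binding and filament turnover, 9 rose and 10 fell in pachytene, and 9 rose and 3 fell in round spermatids. The shares changed, 73.1% and 46.2%, were near the 67.6% and 40.8% of all features. Without spermatogonia replicate 3, 10 rose and 9 fell of 25 tested in pachytene, so neither direction led. The testis profilins differed in time: Pfn4 was at 1.24 ± 0.266 FPKM in spermatogonia, 179.6 ± 2.18 FPKM in pachytene and 239.8 ± 10.7 FPKM in round spermatids, and Pfn3 was listed at 0 in all spermatogonia libraries, at 7.86 ± 0.729 FPKM in pachytene and at 83.3 ± 6.01 FPKM in round spermatids. Pfn3 had a log2 fold change of 3.39 in round spermatids against pachytene, near the 3.49 of the round spermatid markers. The part of round spermatid transcripts in its pachytene level was not tested. Tesk1, a kinase that phosphorylates cofilin, rose to 174 ± 4.37 FPKM in pachytene, against 4.15 ± 0.533 FPKM in spermatogonia.

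Of 30 genes of filament nucleation, 28 were tested, and 7 rose and 12 fell in pachytene against spermatogonia, while 8 rose and 2 fell in round spermatids against pachytene. That is 67.9% changed at the first step and 35.7% at the second, against 67.6% and 40.8% of all features, so the shares changed either way are near. The directions were not: at the first step more fell than rose, while 36.6% of all features rose and 31% fell. The median log2 fold change there was -0.69 against 0.26 over all features. Without spermatogonia replicate 3, 8 rose and 11 fell of 27 tested, with a median of -0.49 against 0.44. Fmn1, a formin, rose to 6.49 ± 0.658 FPKM in pachytene, against 0.788 ± 0.143 FPKM in spermatogonia. Of 30 filament binding and crosslinking genes, 29 were tested, and 2 rose and 18 fell in pachytene, with a median of -2.28 against 0.26 over all features. Cald1 and Tpm4, the genes of caldesmon and a tropomyosin, fell with log2 fold changes of -4.40 and -4.30, and of -4.29 and -4.20 without spermatogonia replicate 3. Tpm1, another tropomyosin gene, was at 50.6, 48.5 and 512 FPKM in spermatogonia replicates 1 to 3. Its log2 fold change of -4.90 rests on replicate 3 and was -3.78 without it, smaller than those of Cald1 and Tpm4. In round spermatids 10 of the 29 rose and 1 fell against pachytene. The shares changed, 69.0% and 37.9%, were near the 67.6% and 40.8% of all features. Fascin 3 (Fscn3), a testis bundling protein, reached 64.1 ± 0.588 FPKM, against 5.96 ± 0.833 FPKM in pachytene, and talin 2 (Tln2) 55.6 ± 1.25 FPKM, against 5.11 ± 0.130 FPKM. The log2 fold changes of Fscn3, 3.41, and Tln2, 3.42, were near the 3.49 of the round spermatid markers. The part of round spermatid transcripts in the pachytene levels of both genes was not tested.

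The authors' deposited table of differences lists 6 of the 10 genes in pachytene against spermatogonia, and its log2 fold changes for Actb (-1.54), Actg1 (1.30) and Acta2 (-3.79) are those of the means given here. The genes not listed in the authors' deposited table for that step are Actl7b, Actl9, Actrt2 and Capza3, all of which were near 0 in spermatogonia. For round spermatids against pachytene the authors' deposited table lists all 10, with a q-value of 0.0124 for Actl7b and of 0.000104 for each of the others.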

How the data were processed

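Germ cells of adult mouse testis were sequenced in 9 libraries, 3 for each of 3 stages. Per the labels' protocols, each library was made from 1 µg of total RNA with a stranded Illumina TruSeq kit and read as pairs of 100 bp. Per the submitters' processing notes, the build was mm10 and the tools were TopHat2 2.0.12, Cuffdiff 2.2.1, Trim Galore and FastQC. No source used here gives the annotation release, the counting options or the use of strand. Deposited by the authors were FPKM values per feature and library, and tables of their own calls with a log2 fold change, a p-value and a q-value per feature. FPKM fixes each library to a common total, so changes are relative, and it hides the depth, which was estimated from the steps between low values of genes with a single transcript. Counting intervals (exact, 95%) rest on that estimate and cover counting error only.

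Features with a blank in any library, 31 in all, were dropped. Values were taken as log2(FPKM + 0.1), which understates the change of low genes, for features that reached 0.5 FPKM in 3 or more libraries. limma 3.58.1 (R 4.3.3) with a mean trend fitted all 9 libraries over 17987 features, and p-values were adjusted by Benjamini-Hochberg over all of them. On simulated data for pachytene against spermatogonia over 17987 features, 78% of changes of 1.5 and 95% of changes of 3 on the log2 scale were recovered, and 0.0281% of unchanged features were called. The simulation gave all stages the pachytene means with normal noise and changed 100 features by each size. The data hold far more changed features, so these rates are not those of the reported comparison. Ratios within a library were compared by exact two-sided permutation tests. Identifiers were matched to GENCODE M21 on GRCm38, the assembly of mm10 (38505 of 39336, of which 38440 overlapped the deposited position), and coordinates are 1-based. The lncRNA table, scaled separately, was used only to look for neighbours. The replicate numbers were not used to pair libraries.

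The genes, the lists and the tests were chosen with earlier results of these data known. Named from each list are up to 4 changed genes with the largest change and at least 1 FPKM in the higher stage, with Capza1, Capza2, Actrt1 and Pfn3 at any value. Gopc, Actr1a, Actr2, Actr3 and the other theca genes named by their percentages were chosen after their values were seen, as were the combined value of Actl7b and Gm26657 and the subtraction at the marker median. Alternatives were other pseudocounts and filters, equal library medians, no mean trend, only the stages compared, a replicate block, a subtracted round spermatid share and each library left out.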

Additional observations from a re-analysis of the deposited data

How the results depend on the processing

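Leaving out each library in turn kept the number of the 10 genes called at 10 in pachytene against spermatogonia, 6 in round spermatids against pachytene and 8 in round spermatids against spermatogonia, while the features called ranged from 11093 to 11999, 6332 to 7260 and 11328 to 12281. Of the 573 values for single genes under all alternatives, 563 kept their direction and their side of the threshold. With equal library medians Actg1 passed in round spermatids against pachytene (-1.25) and Actb in round spermatids against spermatogonia (-1.004). With the round spermatid share subtracted at the lowest marker percentage, Actg2 (0.03) and Capzb (0.94) no longer passed in pachytene against spermatogonia. For Actg2 a small remainder is left by construction, which is no test of its pachytene level. With the marker median subtracted, a setting added after the data were seen, Capzb (0.89) and Actrt2 (0.15) no longer passed there, and Actg2 (-4.83), Actl7a (-1.99) and Capza3 (-0.078) changed sign because their pachytene values were set to 0. The difference in the log2 ratio of Acta2 to Actg2 was then 0.83 and that in the Capza3 percentage -0.00824 percentage points at that step, and Actb passed in round spermatids against pachytene (1.04). The difference in the log2 ratio of Actl7a to Actl7b in pachytene minus spermatogonia, -0.20, was 1.19 with a pseudocount of 1 FPKM and -2.60 with 0.01 FPKM, so it has no fixed direction: Actl7b is at 0 in 2 spermatogonia libraries, where the ratio is set by the pseudocount. Same-numbered libraries did not deviate together (correlations -0.11 to 0.04, and 2 of 9 libraries correlated best with their own number). No pairing by number was seen, but with 3 libraries a stage this cannot show whether animals were shared. A fit with a replicate block called 12162, 7338 and 12346 features in the 3 comparisons, against 12154, 7333 and 12336, and the same 10, 6 and 8 of the 10 genes. Depth limits the spermatogonia values of Actl7b, Actl9, Actrt2 and Capza3, which rest on 1 to 3 estimated fragments.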
